A study of Mus musculus with 15 samples.

Results

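The genes described here are 9 genes of the myelin sheath and of the oligodendrocytes that form it, namely Mbp, Mog, Mag, Mobp, Cnp, Cldn11, Opalin, Ugt8a and Mal. They were taken by their gene symbol, and all 9 were found among the 26628 genes of the table. All 9 were also among the 15213 genes that had at least 1 normalized count per 1000000 in 3 or more samples and were tested. Whole cerebellum (Ce) and striatum (St) were taken from male Hsd:ICR mice labelled 6 weeks old, and their RNA was sequenced. The mice came from 1 line selected over generations for high voluntary wheel running (Hi) and from 1 unselected control line (Co), so that a difference between lines is a difference between these lines and not between replicated selections. Mice of both lines were kept with a running wheel for 7 days before dissection, and no sedentary group was compared. There were 4 samples each of CeCo, CeHi and StCo, and 3 of StHi, because the authors removed 1 StHi sample.

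Myelin is a spiral of oligodendrocyte membrane around the axon that lets action potentials jump between nodes. Its layers are compacted by basic proteins on their cytoplasmic faces, sealed by tight junctions at their margins, joined to the axon by adhesion molecules and made of a membrane rich in galactolipids and cholesterol. In the striatum, myelinated fibres of the internal capsule run in bundles through the gray matter, and in the cerebellum they form the central white matter of the folia. In RNA from whole tissue, fewer oligodendrocytes and less myelin RNA per oligodendrocyte cannot be told apart.

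The deposited values are fragment counts divided by a factor per sample, here called normalized counts, and they are not divided by gene length. Between 32909383 and 47485535 fragments per sample were recovered from them, and 1 fragment was worth 0.841 to 1.297 normalized counts. The region labels were checked on 9 striatum and 10 cerebellum marker genes. All 9 were higher in St and all 10 were higher in Ce at an adjusted P-value under 0.05 in both lines. Which samples are Hi and which are Co rests on the labels alone and could not be checked in the table. The direction of every line difference given here remains uncertain. An exchange of the Co and Hi labels would turn the sign of each line difference and leave its size and test as they are. It would also exchange the lines in each result given for 1 line, such as the region calls within Co or Hi and the spread of Mog. For the cerebellum marker En2, the paper prints contrasts of Co against Hi whose signs are opposite, in both regions, to those found here under the labels. Its text gives the direction of En2 in the St both ways. The 8 choroid plexus genes, which mark tissue that adheres to a dissected cerebellum, summed to 1480 to 117412 normalized counts in the Ce samples and to 1297 to 18212 in the St samples.

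Promoter sequences are shown for the 4 genes with matches to motifs of oligodendrocyte transcription factors upstream of their start. The motifs were the letters CTGGCAC or CTGGTAC, known for Myrf, a factor that drives the myelin genes, and AACAAAG or AACAATG, known for factors of the Sox family. They were searched on both strands from 250 bases before to 50 bases after each RefSeq start on GRCm38.p6. Windows were found for 8 of the 9 genes. Positions count from the RefSeq start. The bases printed stop where any annotated transcript of the gene begins, which leaves out the last 35 bases before the RefSeq start in Cnp and in Mobp, the matches are in capitals, and a match on the opposite strand shows the reverse complement of the motif. The sequences are of the reference strain and not of the mice sequenced.
Mag: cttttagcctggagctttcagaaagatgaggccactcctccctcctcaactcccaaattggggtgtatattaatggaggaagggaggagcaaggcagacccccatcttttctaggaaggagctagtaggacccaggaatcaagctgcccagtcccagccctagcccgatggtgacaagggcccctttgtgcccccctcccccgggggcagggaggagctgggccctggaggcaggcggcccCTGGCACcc
Cnp: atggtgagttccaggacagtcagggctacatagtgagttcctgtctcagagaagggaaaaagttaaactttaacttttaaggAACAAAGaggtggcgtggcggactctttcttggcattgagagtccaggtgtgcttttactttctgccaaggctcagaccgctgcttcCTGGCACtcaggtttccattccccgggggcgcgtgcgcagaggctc
Mog: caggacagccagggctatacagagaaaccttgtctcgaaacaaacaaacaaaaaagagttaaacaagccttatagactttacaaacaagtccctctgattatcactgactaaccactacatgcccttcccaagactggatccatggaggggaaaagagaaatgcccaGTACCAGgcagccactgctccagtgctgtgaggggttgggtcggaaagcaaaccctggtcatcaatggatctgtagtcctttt
Mobp: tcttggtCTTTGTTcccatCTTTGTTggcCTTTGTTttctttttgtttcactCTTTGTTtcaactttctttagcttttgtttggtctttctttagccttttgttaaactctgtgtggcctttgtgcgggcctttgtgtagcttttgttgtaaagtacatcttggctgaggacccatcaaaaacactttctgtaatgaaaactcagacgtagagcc
They lie at chr7:30914923-30915172, minus strand (Mag), chr11:100574689-100574903, plus strand (Cnp), chr17:37023399-37023648, minus strand (Mog) and chr9:120149492-120149706, plus strand (Mobp). The Myrf letters began 9 bases before the start in Mag, 81 bases before it in Cnp and 83 bases before it in Mog. Opalin had them at base 37 after its start. Thus 4 of the 8 genes with a window held 1 of the Myrf letter strings, and 7.10% of all 32851 windows did. The Sox letters were found in 2 genes, once in Cnp and 4 times in Mobp between 198 and 243 bases before the start, beside 9.36% of all windows. The E-box CAGCTG occurred in the Opalin window alone (16.3% of all windows), and TATAAA occurred in none of the members (13.6% of all windows). No motif of these was found in the windows of Mal, Cldn11 and Ugt8a. A match describes letters and no binding was measured.

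To compare genes with each other, normalized counts were divided by the length of the annotated exons in kilobases. That length joins the exons of all annotated transcripts, for example 6849 bases for Mobp and 1870 for Cldn11. Which transcripts were expressed was not determined, so the order of the genes depends on the length used. On this scale Mbp, which compacts the cytoplasmic faces of the membrane, stood far above the others, where CeCo had 13088 ± 813 (SD, n = 4) and CeHi 15874 ± 2079 (n = 4) normalized counts per kilobase. The St groups had 15309 ± 3036 (n = 4) for Co and 20578 ± 1461 (n = 3) for Hi. Cnp, Cldn11 and Mal followed. In the Ce their order was Cnp, Cldn11 and Mal, with 3906, 3363 and 3170 normalized counts per kilobase in CeCo, and neighbours in this order overlapped in both Ce groups. In the St the order was reversed to Mal, Cldn11 and Cnp, with 5692, 4937 and 3972 in StCo and 7375, 6638 and 5131 in StHi. The neighbours overlapped in StCo and not in StHi. Mag, Mobp, Mog and Ugt8a formed a lower level, between 847 and 1361 normalized counts per kilobase as means in CeCo, and Opalin was lowest in each group with 42.6 to 171. Opalin, a sialylated membrane glycoprotein of mature oligodendrocytes, therefore rested on the fewest fragments, with 90 to 229 normalized counts in the Ce samples. Before division by length, Mobp had a mean of 8790 normalized counts in CeCo, above Cldn11 with 6289.

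**Figure D1:**
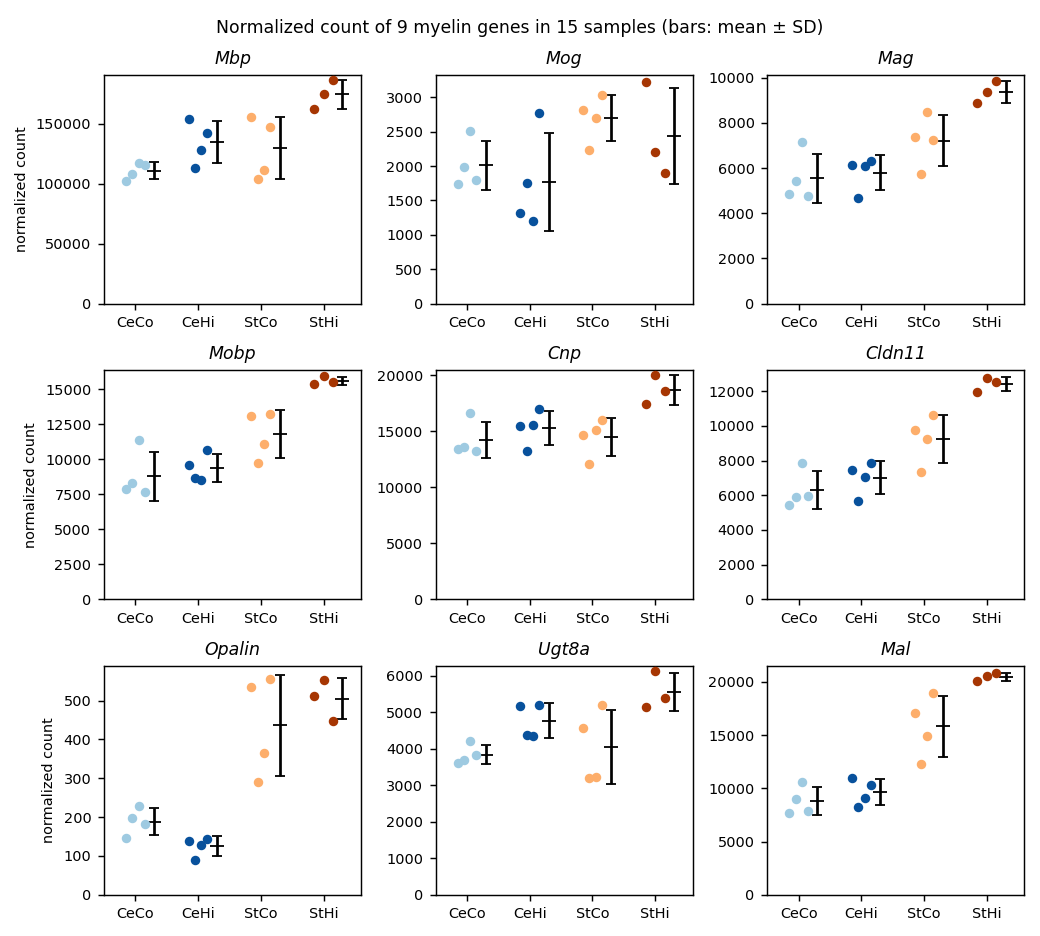
Normalized count of each of the 9 genes (vertical axis from 0, a scale of its own for each gene) in the 4 CeCo, 4 CeHi, 4 StCo and 3 StHi samples, with 1 point per sample and the mean ± SD as a bar beside the points. Mal and Opalin stand higher in St than in Ce in both lines, and the StHi samples lie above the StCo samples for Mbp, Mag, Mobp, Cnp, Cldn11 and Mal.

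The log2 difference of St minus Ce was positive for all 9 genes in both lines, from 0.028 for Cnp in Co to 2.02 for Opalin in Hi. With quantile normalization 6 of the 9 were positive in Co. The 35 other mature genes described below went both ways. In Co, 5 of the 9 genes passed an adjusted P-value of 0.05 (Opalin, Mal, Cldn11, Mobp and Mag) and in Hi 7 of the 9 passed (these 5 with Mbp and Cnp), each time with higher values in St. Among all genes tested, 36.9% were called higher in St in Co and 35.1% in Hi. The St samples lay above all Ce samples for 2 of the 9 genes in Co and for 7 in Hi, beside 34.8% and 34.1% of all genes. The count in Co was 6 without CeCo replicate 2 and 5 without StCo replicate 1. The median log2 difference of the 9 genes was 0.43 in Co and 0.71 in Hi, against -0.012 over all genes tested in Co and -0.012 in Hi. Mog and Ugt8a passed in neither line.

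Opalin (chromosome 19, 41061710 to 41077113) differed most. The CeCo samples had 145, 198, 229 and 182 normalized counts and the CeHi samples 139, 90, 129 and 145. The StCo samples had 536, 290, 365 and 555 and the StHi samples 512, 553 and 448. Every St sample lay above every Ce sample. The log2 difference of St minus Ce was 1.18 (SE 0.21, adjusted P-value 7.1e-05) in Co and 2.02 (SE 0.22, adjusted P-value 5.1e-07) in Hi, which is 2.27-fold and 4.06-fold.

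Mal, a proteolipid that sorts lipid rafts to the myelin membrane, was next (chromosome 2, 127633226 to 127656695). Its normalized count was 7722, 9031, 10594 and 7878 in CeCo and 10943, 8272, 9051 and 10302 in CeHi. In the St it was 17072, 12278, 14957 and 18948 in Co and 20084, 20560 and 20815 in Hi. The regions did not overlap in either line, and the coefficient of variation of the StHi samples was 1.81%. The log2 difference between regions was 0.84 (SE 0.13, adjusted P-value 2.2e-05) in Co and 1.10 (SE 0.14, adjusted P-value 3.4e-06) in Hi.

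Cldn11 (chromosome 3, 31149920 to 31164324) is the claudin of the tight junctions that seal the layers. It had 5422, 5916, 7884 and 5934 normalized counts in CeCo and 7481, 5641, 7066 and 7876 in CeHi. The St values were 9753, 7354, 9218 and 10603 in Co and 11946, 12770 and 12520 in Hi. In Co, replicate 1 of StCo lay below replicate 2 of CeCo, and in Hi the regions did not overlap. The log2 difference was 0.56 (SE 0.13, adjusted P-value 0.0011) in Co and 0.84 (SE 0.14, adjusted P-value 7.1e-05) in Hi.

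Mobp, a basic protein of compact central myelin (chromosome 9, 120149707 to 120181484), ranged from 7627 to 11383 normalized counts in CeCo, 8534 to 10661 in CeHi, 9722 to 13229 in StCo and 15369 to 15913 in StHi. Mag, an adhesion molecule of the innermost layer that faces the axon (chromosome 7, 30899176 to 30914873), ranged from 4770 to 7135 in CeCo, 4670 to 6312 in CeHi, 5748 to 8475 in StCo and 8896 to 9869 in StHi. The regions overlapped for both genes in Co and for neither in Hi. The log2 difference of Mobp was 0.43 (SE 0.12, adjusted P-value 0.0048) in Co and 0.75 (SE 0.13, adjusted P-value 0.00012) in Hi. That of Mag was 0.39 (SE 0.14, adjusted P-value 0.018) in Co and 0.71 (SE 0.15, adjusted P-value 0.00058) in Hi. The Co call of Mag was lost without CeCo replicate 0 (adjusted P-value 0.058), CeCo replicate 3 (0.061) or StCo replicate 2 (0.063), and with quantile normalization (0.095).

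Mbp and Cnp passed in Hi alone. Mbp had 102201, 108423, 116845 and 115917 normalized counts in CeCo and 154045, 113268, 128283 and 142147 in CeHi. In the St it had 155727, 104072, 111391 and 147405 in Co and 161775, 174530 and 186513 in Hi. Of the StCo samples, 2 lay within the CeCo range and 2 above it, whereas each StHi sample lay above each CeHi sample. The log2 difference between regions was 0.21 (SE 0.12, adjusted P-value 0.12) in Co and 0.39 (SE 0.13, adjusted P-value 0.015) in Hi. Without StCo replicate 1 the Co difference of Mbp passed (0.31, adjusted P-value 0.024), and without StHi replicate 2 the Hi difference did not (0.34, adjusted P-value 0.062).

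Cnp encodes the cyclic nucleotide phosphodiesterase that keeps cytoplasmic channels open in the sheath (chromosome 11, 100574904 to 100591729). It had 13399, 13605, 16633 and 13212 normalized counts in CeCo and 15508, 13265, 15535 and 16944 in CeHi. The St values were 14675, 12032, 15085 and 16023 in Co and 17388, 20058 and 18564 in Hi. Only the Hi regions did not overlap. The log2 difference between regions was 0.028 (SE 0.097, adjusted P-value 0.81) in Co and 0.29 (SE 0.11, adjusted P-value 0.020) in Hi, and the Hi call was lost without CeHi replicate 1 (adjusted P-value 0.064) or StHi replicate 1 (0.088). The annotated exons of Cnp share 154 bases with Dnajc7 on the opposite strand, and the labels do not say whether reads were counted by strand. Dnajc7, a cochaperone, had a log2 line difference of 0.0023 in the St (adjusted P-value 0.99), and its deviations from the group means had a Pearson correlation of -0.10 with those of Cnp over 15 samples.

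Ugt8a, the transferase that makes galactosylceramide, the main galactolipid of myelin (chromosome 3, 125865271 to 125938619), had nearly equal means in the Co regions. Its normalized count was 3624, 3701, 4214 and 3825 in CeCo and 4558, 3199, 3220 and 5210 in StCo, and 5177, 4365, 4347 and 5200 in CeHi and 5144, 6126 and 5397 in StHi. The St minus Ce log2 difference was 0.049 (SE 0.14, adjusted P-value 0.76) in Co and 0.23 (SE 0.15, adjusted P-value 0.19) in Hi. For Mog the same differences were 0.44 (SE 0.24, adjusted P-value 0.12) and 0.52 (SE 0.26, adjusted P-value 0.097). Same-numbered Ce and St samples of Co deviated together across genes, and with the replicate number as a block within line the Co difference of Mog passed (adjusted P-value 0.042). Without CeHi replicate 3, which had the highest Ce value, Mog passed in Co (adjusted P-value 0.038) and in Hi (log2 difference 0.76, adjusted P-value 0.0044). With quantile normalization, the Co differences of Mbp, Cnp and Ugt8a turned negative without passing, and the Hi calls of Mbp and Cnp were lost.

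**Figure D2:**
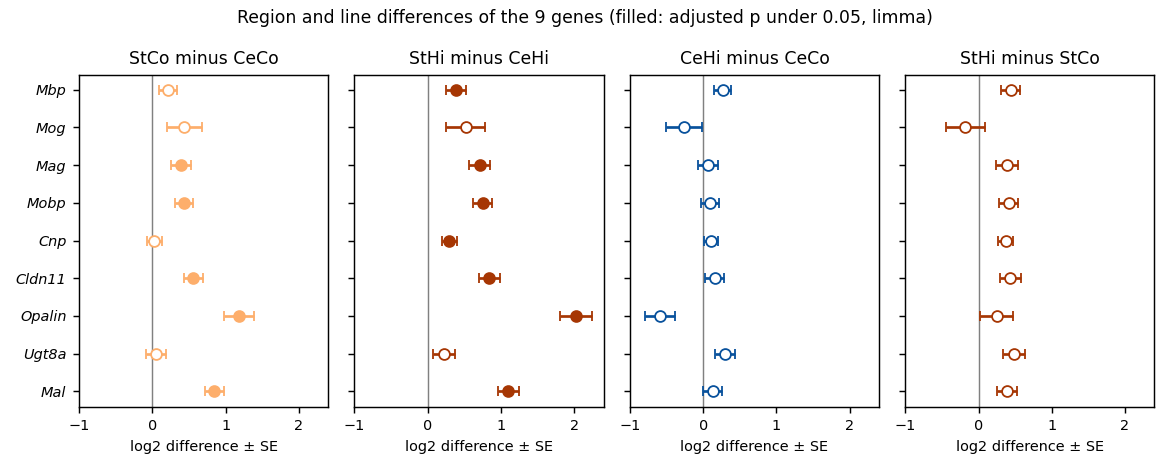
Log2 difference of each gene (horizontal axis, with the standard error of the limma fit as bars) between regions within Co and within Hi and between lines within Ce and within St, with filled points at an adjusted P-value under 0.05. Between regions 5 genes in Co and 7 in Hi are filled, and between lines none is, although 8 of the 9 points of StHi minus StCo lie above 0.

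Between the lines, no myelin gene passed in the St, and 7 of the 9 had higher values in StHi at an unadjusted P-value under 0.05. With limma, 0 of the 9 genes had an adjusted P-value under 0.05, where 2.66% of all genes did and 1.49% were called higher in Hi. An unadjusted P-value under 0.05 with higher values in Hi was found for 7 of the 9 genes and for 7.04% of all genes. The StHi samples lay above all StCo samples for 6 of the 9 genes (Mbp, Mag, Mobp, Cnp, Cldn11 and Mal), beside 6.74% of all genes. The genes were not independent of each other, because a sample that was low in 1 of them was low in most. Their median log2 difference was 0.39, against -0.0046 over all genes tested.

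The 7 genes differed by similar amounts. The log2 difference of StHi minus StCo was 0.44 (SE 0.13, unadjusted P-value 0.0040, adjusted P-value 0.092) for Mbp and 0.37 (SE 0.11, unadjusted P-value 0.0029, adjusted P-value 0.077) for Cnp. The same difference was 0.48 for Ugt8a (adjusted P-value 0.11), 0.43 for Cldn11 (0.14), 0.41 for Mobp (0.14), 0.39 for Mal (0.18) and 0.39 for Mag (0.23). These correspond to 1.29-fold to 1.40-fold higher values in Hi. Opalin had a log2 difference of 0.25 (SE 0.22, adjusted P-value 0.71) and Mog of -0.18 (SE 0.26, adjusted P-value 0.86). Summed over the 9 genes, of which Mbp holds most, the normalized count was 225633, 156929, 176466 and 222254 in StCo and 244337, 262082 and 271490 in StHi. The sums of the lines did not overlap, and they made up 0.368% to 0.517% of all normalized counts in StCo and 0.572% to 0.633% in StHi.

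Whether the St difference passed depended on the test. On the recovered fragments, DESeq2 called 4 genes higher in StHi, namely Mbp (adjusted P-value 0.030), Cnp (0.021), Cldn11 (0.046) and Ugt8a (0.040), and the quasi-likelihood test of edgeR called none. Sample quality weights called Mbp and Cnp. StCo replicate 1 had the lowest value of its group for each of the 9 genes, and without it the median log2 difference was 0.28 and the smallest adjusted P-value 0.22. Without StCo replicate 0 Mbp passed (adjusted P-value 0.033), without StCo replicate 3 Ugt8a (0.014), and without CeCo replicate 2 Mobp (0.033) and Cnp (0.043), so that the call of single genes turned on 1 sample.

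In the Ce no myelin gene passed between the lines either. With limma, 0 of the 9 genes passed an adjusted P-value of 0.05, where 5.94% of all genes did, and 3 had an unadjusted P-value under 0.05, beside 19.7% of all genes. These 3 were Mbp (log2 difference of CeHi minus CeCo 0.27, SE 0.12, adjusted P-value 0.24), Ugt8a (0.30, SE 0.14, adjusted P-value 0.23) and Opalin (-0.59, SE 0.21, adjusted P-value 0.11). The values of CeHi lay above those of CeCo for Ugt8a and below them for Opalin, and 13.6% of all genes had lines that did not overlap in the Ce. For Opalin this was nearly a tie, with 144.8 normalized counts in CeHi replicate 3 and 145.4 in CeCo replicate 0. The quasi-likelihood test of edgeR called none of the 9, DESeq2 called Opalin (adjusted P-value 0.049), and the fit of the Ce samples alone called Ugt8a (0.040). The median log2 difference of the 9 genes was 0.10, against -0.0021 over all genes, and it was 0.23 without CeCo replicate 2, 0.17 without CeHi replicate 1 and 0.054 without CeHi replicate 3. Mag, Mobp, Cnp, Cldn11 and Mal lay between 0.069 and 0.16 with adjusted P-values of 0.56 to 0.83, and Mog was at -0.26 (SE 0.24, adjusted P-value 0.61).

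Among the 9 genes, 0 had an interaction of line and region that passed with limma, edgeR or DESeq2, where 0.532% of all genes passed with limma. The interaction, which is the signed line difference in the St minus that in the Ce, was positive for all 9, from 0.079 (Mog) to 0.84 (Opalin) on the log2 scale, with 1 unadjusted P-value under 0.05, beside 9.56% of all genes (Opalin, interaction 0.84, SE 0.30, unadjusted P-value 0.013, adjusted P-value 0.33). The direction of the Mog interaction turned when any of 5 single samples was left out. A difference of the line effect between the regions was thus not shown for a gene of this group.

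Opalin parted from the other genes in the CeHi samples. Relative to the mean log2 level of the 7 other genes (Mog left out), it was at -6.05, -5.71, -5.80 and -5.77 in CeCo and at -6.53, -6.83, -6.49 and -6.50 in CeHi. All CeHi samples lay below all CeCo samples on this scale. In the St it ranged from -5.25 to -4.80 in Co and from -5.37 to -5.08 in Hi, and the lines overlapped. Opalin thus had a lower share of the myelin RNA in CeHi, although the 7 other genes had equal or higher means there. The mean of Mog was lower there too (1763 normalized counts in CeHi and 2009 in CeCo). The relative measure was chosen after the values were seen and was not tested.

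Mog encodes an immunoglobulin-like protein of the outermost layer and a known target of autoimmune demyelination (chromosome 17, 37010743 to 37023398). Its normalized count was 1745, 1981, 2510 and 1798 in CeCo and 2819, 2235, 2703 and 3037 in StCo. In Hi it was 1325, 1756, 1202 and 2768 in CeHi and 3222, 2204 and 1894 in StHi. The coefficient of variation was 17.4% and 12.5% in the Co groups and 40.3% and 28.5% in the Hi groups. Relative to the mean log2 level of the 8 other genes, Mog lay between -1.75 and -1.62 in CeCo and between -1.81 and -1.64 in StCo. In CeHi it was at -2.47, -1.70, -2.46 and -1.44, and in StHi at -1.79, -2.46 and -2.62. In Hi, 4 of the 7 samples were thus below -2.4, and the other 3 were at or above -1.8, near the Co samples.

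**Figure D3:**
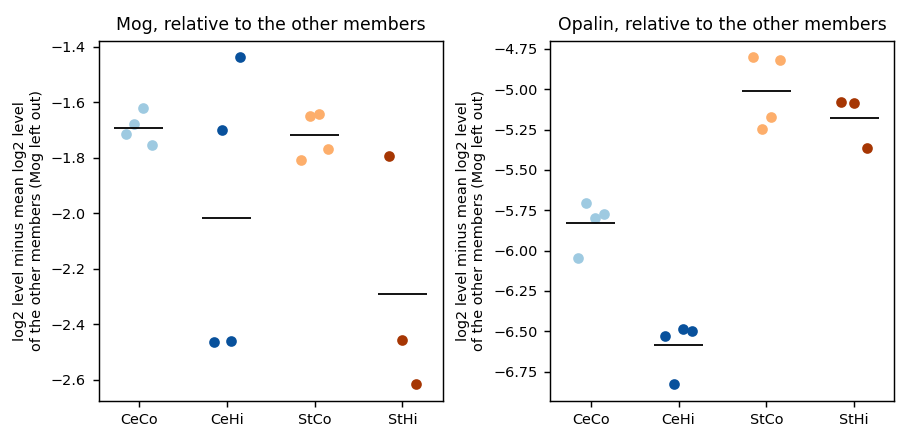
Log2 level of Mog and of Opalin minus the mean log2 level of the other members (Mog itself always left out of that mean), by group, with 1 point per sample and the group mean as a line. The Co samples of Mog lie between -1.81 and -1.62 and the Hi samples between -2.62 and -1.44, and the CeHi samples of Opalin lie below all CeCo samples.

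The SD of this relative level of Mog within groups was 0.066 over the 8 Co samples and 0.45 over the 7 Hi samples, a ratio of 6.85. The ratio was 0.40 to 1.21 for the 8 other genes, each measured against the mean of these 8, itself included. Mog was not part of the mean it was measured against, so the ratios are not fully alike. No share over all genes was computed for the relative ratio. Without reference to the other genes, the SD of Mog was 2.195 times as large in Hi as in Co, and 6.81% of the 11327 genes at or above the mean level of Opalin had a ratio at least as large. Of 18 tested genes within 1000 kb of Mog on either side, 3 (16.7%) had such a ratio, namely H2-T10, H2-T22 and H2-M5. These are major histocompatibility complex class I genes, which have close relatives among which reads can be shared. Whether reads were shared here was not tested. The nearest neighbours, Zfp57 and Gabbr1, had ratios of 1.26 and 0.59. This pattern was noticed in the values, no test was made of it, and the promoter of Mog printed above is that of the reference strain.

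Within groups the myelin genes went up and down together from sample to sample. Deviations from the group mean were correlated across the 15 samples for each pair of genes, which share libraries and dissections, so that the correlations are given as a description. For the 28 pairs without Mog the Pearson correlation had a median of 0.82 and ranged from 0.34 (Mag and Ugt8a) to 0.95 (Cnp and Cldn11). For the 8 pairs with Mog it had a median of 0.38. In the Co samples alone the median of the pairs with Mog was 0.92, and in the Hi samples alone it was 0.067. Averaged over the 9 genes, the samples farthest from their group were StCo replicate 1 at -0.32 and CeCo replicate 2 at 0.29 on the log2 scale, and the 3 StHi samples lay within 0.041 of theirs.

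**Figure D4:**
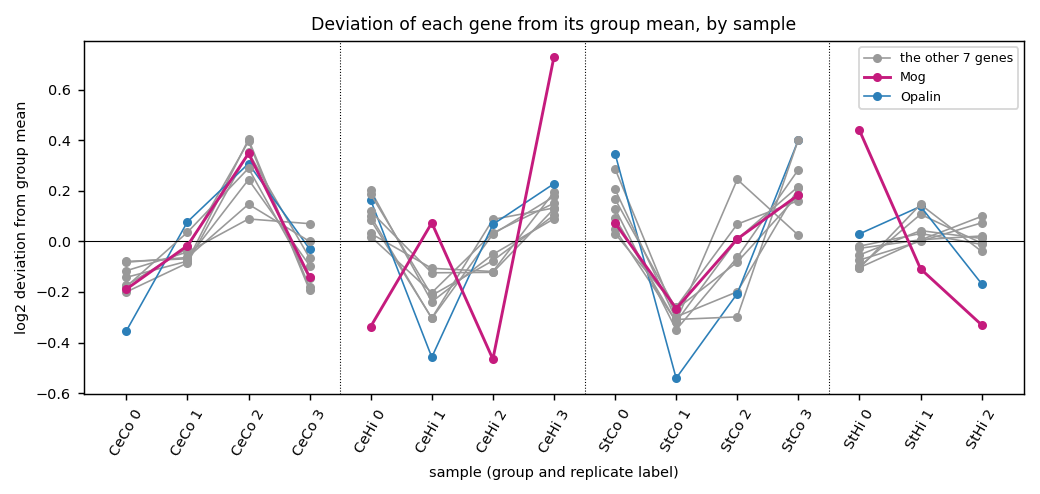
Log2 deviation of each of the 9 genes from its group mean (vertical axis) in each of the 15 samples, with Mog and Opalin coloured and the 7 others gray, and with lines that join the samples of a group only to make a gene traceable. In the Co samples Mog runs with the others, and in the Hi samples it departs from them in both directions.

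Outside the 9 genes, those whose deviations were most like their mean were Tmem88b, a membrane protein of oligodendrocytes (Pearson correlation 0.94), Fa2h, the fatty acid hydroxylase of myelin galactolipids (0.93), Cers2, listed as Lass2, the ceramide synthase for very long acyl chains (0.90), 5430435G22Rik (0.89), Prr18 (0.89) and Hebp1 (0.88), over 15 samples. Tmem88b was higher in St by a log2 difference of 0.32 in Co (adjusted P-value 0.012) and 0.64 in Hi (0.00011), and Prr18 by 0.44 (0.0036) and 0.69 (0.00018). Fa2h and Cers2 did not pass between regions. Between the lines in the St none of the 6 passed, and Hebp1 and 5430435G22Rik had lower means in StHi, unlike the 7 myelin genes.

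The wider oligodendrocyte programme was described with lists formed from known functions. Of 35 other genes of mature oligodendrocytes and myelin, 2 were higher in StHi than in StCo at an adjusted P-value under 0.05, 33 did not pass, and 23 had higher values in StHi at an unadjusted P-value under 0.05. Their median log2 line difference was 0.33 in the St and 0.11 in the Ce. Among the genes that passed was Trf, transferrin, which carries iron to the myelinating cell. It had 6490 ± 551 normalized counts in StCo and 9251 ± 604 in StHi (log2 difference 0.51, SE 0.09, adjusted P-value 0.0056), and it passed with each sample left out in turn. In the Ce, 1 of the 35 genes passed, where 2.94% of all genes were called higher and 2.99% lower in Hi. This was Gjc3, an oligodendrocyte connexin, with 4167 ± 442 normalized counts in CeCo and 2402 ± 688 in CeHi. Its log2 difference was -0.84 (SE 0.18, adjusted P-value 0.015), and it reached 0.0505 without CeCo replicate 3.

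Of 12 oligodendrocyte transcription factors, 3 were higher in StHi, 9 did not pass, and 11 had a positive difference, with a median of 0.30. Myrf, listed as Gm98, whose motif was searched above, had 1643 to 2501 normalized counts in StCo and 2855 to 3260 in StHi, a log2 difference of 0.56 (SE 0.13, adjusted P-value 0.026). Olig1, a helix-loop-helix factor of the lineage, had 5479 ± 513 in StCo and 7398 ± 545 in StHi (log2 difference 0.43, SE 0.08, adjusted P-value 0.0067), and 2454 ± 184 in CeCo and 3025 ± 205 in CeHi (0.30, SE 0.08, adjusted P-value 0.028). Nkx6-2, a homeodomain factor of paranode assembly, had 504 to 669 in StCo and 801 to 970 in StHi (log2 difference 0.55, SE 0.13, adjusted P-value 0.034). The StCo and StHi samples did not overlap for these 3. Olig1 passed in the St with each sample left out in turn, whereas Myrf was lost in 5 of 15 cases (without StCo replicates 1 or 2 or any StHi sample, adjusted P-value up to 0.089). Nkx6-2 was lost in 4 cases (without StCo replicates 1 or 3 or StHi replicates 0 or 1, up to 0.12), and Olig1 in the Ce in 3 (without CeCo replicate 1 or CeHi replicates 2 or 3, up to 0.086).

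Genes of earlier stages were compared in the same way. Of 12 oligodendrocyte precursor genes, 1 passed between lines in the St, Matn4, a matrix protein of precursors (374 ± 18.9 in StCo and 524 ± 61.6 in StHi, log2 difference 0.47, adjusted P-value 0.029), and the median was 0.031. Of 16 genes of newly formed oligodendrocytes, 2 were higher in StHi, namely Neu4, a sialidase (log2 difference 0.38, adjusted P-value 0.035), and Kif19a, a kinesin (0.78, adjusted P-value 0.0046). The call of Matn4 was lost without StCo replicates 0, 1 or 3 or StHi replicates 0 or 1 (adjusted P-value up to 0.14). That of Neu4 was lost without the same StCo samples or any StHi sample (up to 0.16). In the Ce, Kif19a was also higher in Hi (361 ± 32.6 against 108 ± 7.93, log2 difference 1.73, SE 0.13, adjusted P-value 1.9e-07), and the noncoding RNA 9630013A20Rik was lower (46.7 ± 15.2 against 97.2 ± 8.55, log2 difference -1.10, SE 0.24, adjusted P-value 0.0098).

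Between the regions, most precursor genes passed. Of the 12 precursor genes 9 were higher in St in Co and 9 in Hi, 8 of them in both, with medians of 0.998 in Co and 1.02 in Hi. Pdgfra, the receptor that defines precursors, had means of 1170 and 1095 normalized counts in CeCo and CeHi and of 3122 and 3200 in StCo and StHi (log2 difference between regions 1.42 in Co and 1.55 in Hi), and Cspg4, the NG2 proteoglycan, differed by 1.51 and 1.74. Of the transcription factors 6 were higher and 2 lower in St in Co (37.8% of all genes were called lower there, and 35.4% in Hi), among them Olig1 (1.16) and Sox8 (1.13) on the higher side and St18 (-3.86) on the lower. The 35 other mature genes went both ways, with 11 higher and 8 lower in St in Co and 16 higher and 6 lower in Hi. Sept4 (-1.87), Klk6 (-1.62) and Apod (-1.36) were the 3 with the largest Co difference among those that passed, and all 3 were lower in St.

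The membrane lipids of myelin were followed in 2 lists. Of 11 genes of galactolipid and sphingolipid synthesis, which include Ugt8a, none passed between lines in either region, while 5 in the St had an unadjusted P-value under 0.05, all with higher values in StHi (median 0.24). Gal3st1, which sulfates galactosylceramide, was higher in St by a log2 difference of 0.51 in Co and 0.73 in Hi. Of 21 genes of cholesterol synthesis, none was higher and 1 was lower in StHi (1.17% of all genes were called lower), Hmgcs1, the synthase at the head of the pathway (10898 ± 326 in StCo and 8452 ± 154 in StHi, log2 difference -0.37, SE 0.07, adjusted P-value 0.0084), and the median was -0.063. In the Ce, 2 were higher in Hi, among them Sc5d, a desaturase of the last steps (log2 difference 0.34, adjusted P-value 0.0030). The calls of Hmgcs1 and Sc5d held with each sample left out. The median of the cholesterol genes in the St was thus of the other sign than that of the myelin genes. Between the regions 12 of the 21 were higher and 2 lower in St in Co, for example Fdft1 at a log2 difference of 1.18 and Msmo1, listed as Sc4mol, at 1.20.

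Of 15 node and paranode genes 1 passed between lines in the St, with higher values in StHi, and the median of the list was -0.023. Between the regions in Co, 7 node and paranode genes were higher and 3 lower in St, and of 26 tested signals that regulate myelination 16 were higher and 7 lower. None of these signals passed between lines in the St. In the Ce, Nrg3, a neuregulin, was higher in Hi (521 ± 59.2 against 381 ± 18.5, log2 difference 0.44, SE 0.10, adjusted P-value 0.016), and without CeCo replicate 0 its adjusted P-value was 0.052. Of the peripheral myelin genes, Pmp2 did not pass the filter on low values and had at most 4.86 normalized counts in any sample. Of the 7 peripheral genes tested, 5 were higher and 1 lower in St in each line, and none passed between lines.

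**Figure D5:**
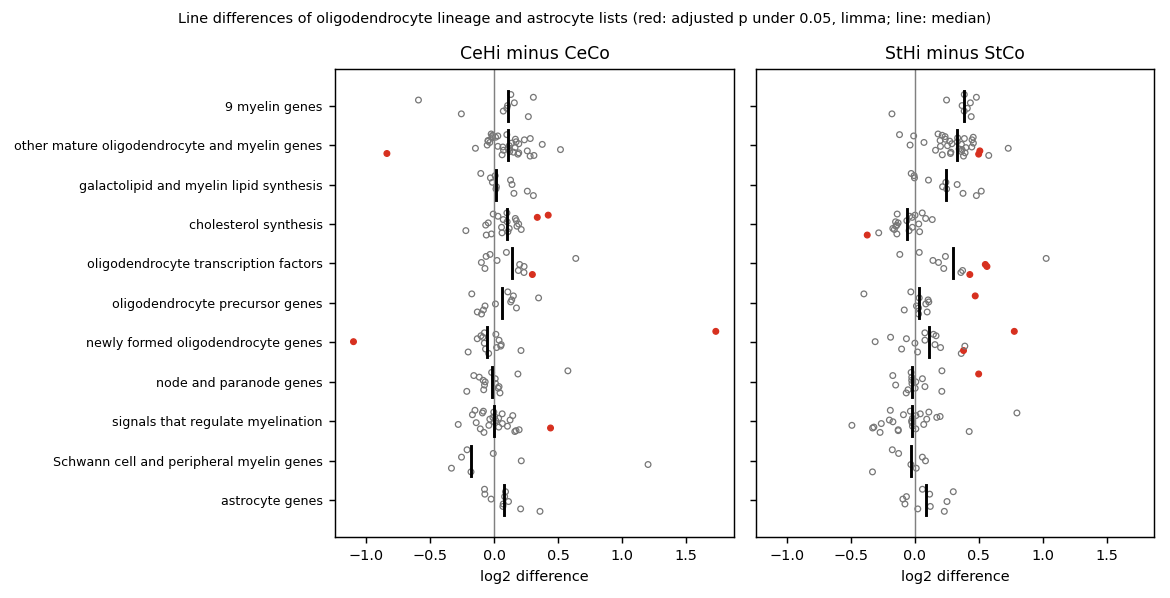
Log2 line difference (horizontal axis) of each tested gene of the 9 myelin genes and of 10 lists, within Ce and within St, with 1 point per gene, red points at an adjusted P-value under 0.05 (limma) and a line at the list median. In St the medians of the 9 myelin genes (0.39), of the other mature genes (0.33) and of the transcription factors (0.30) lie to the right, and that of cholesterol synthesis (-0.063) lies left of 0.

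Other cell types were compared beside the St line difference. Of 10 astrocyte genes none passed between lines in the St, with a median of 0.087 and a sum of 205675 to 239610 normalized counts in StCo and 206146 to 230087 in StHi. Of 10 microglia genes 1 passed, C1qb, a complement subunit (954 ± 24.5 and 1308 ± 131, log2 difference 0.44, adjusted P-value 0.0058), with a median of -0.023, and of 10 endothelial genes none passed (median -0.056). The 10 pan-neuronal genes summed to 293302 to 339463 in StCo and 257898 to 321751 in StHi, with 0 called and a median of -0.11. Markers of the neighbouring cortex, of which none passed, had a median of -0.67 and summed to 7235 to 10629 in StCo and 4084 to 8714 in StHi. The choroid plexus genes, of which none passed either, had a median of 1.22 and summed to 1297 to 1859 in StCo and 1808 to 18212 in StHi. Of 10 cerebellum markers 8 did not pass, and Cbln1 (log2 difference 0.51, adjusted P-value 0.026) and En2 (1.41, adjusted P-value 0.0098) were higher in StHi as labelled. The list had a median of 0.31, and its sums overlapped, with 4005 to 6339 in StCo and 4365 to 6882 in StHi. In the paper's contrast of the St lines, En2 is printed as higher in Co. Cbln1 was lost without any of the StHi samples (adjusted P-value up to 0.0996) and En2 without StHi replicate 1 (0.058). The 9 striatum markers did not pass (median 0.082). The part of these markers in the line difference of the myelin genes was not tested.

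Beside the region difference, all 10 microglia genes were higher in St in both lines (median log2 difference 1.98 in Co and 1.90 in Hi), 7 of 10 astrocyte genes were lower in St in each line, 6 of them in both (medians -0.86 and -0.72), and 4 of 10 pan-neuronal genes were higher and 4 lower in each line. The part of other cell types in the differences of the myelin genes was not tested.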

How the data were processed

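RNA-seq of 15 samples of mouse cerebellum and striatum was analysed. Per the labels and the study's methods, TopHat2 placed read pairs (100 bases each) on GRCm38, and the submitters' processing notes name Cuffnorm 2.2.1 for normalization. The table that the authors deposited holds a signal per gene, which is the fragment count over a factor for each sample. Gene length does not enter it. In each sample 99.6% to 99.8% of the values up to 20 were within 0.1 of a whole multiple of a common step, and fragments were recovered with it. Totals were 38499264 to 43669012 normalized counts per sample.

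The model was a fit of 4 group means with limma 3.58.1 (R 4.3.3) in its trended and robust form, on log2 of the value plus 1 after TMM scaling (edgeR 4.0.16, factors 0.993 to 1.01), for the 15213 genes with at least 1 count per 1000000 in 3 samples, the filter of the study. P-values were adjusted over these genes with the Benjamini-Hochberg method. The quasi-likelihood test of edgeR, which the study used, and DESeq2 1.42.0 were run on the recovered fragments as alternatives, because the deposited values are scaled. In simulated data of 15213 genes, all of 200 genes changed 2-fold between the Ce lines were called (100%), with 5.21% false calls. The simulation gave all genes the same dispersion, and its change was larger than the largest St line difference of the myelin genes (Ugt8a, 1.40-fold). It does not measure the power for differences of that size. Groups came from the labels alone. Samples of a group came from separate mice, and P-values measure the spread between mice of 1 line. Same-numbered Ce and St samples of Co had correlated deviations (0.17 to 0.28 over 4 pairs), and those of Hi had not (-0.075 to 0.051 over 3 pairs). The model reported has no block.

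The genes and the lists were chosen with earlier results of these data known. Named were the 9 genes, list genes that passed between lines or in the interaction, the 3 list genes with the largest region difference, the 6 genes that varied most like the 9, and genes that overlap them. Some genes that this rule names are not reported here. Exon lengths, positions and overlaps came from the GENCODE annotation of GRCm38, and promoters from RefSeq. Correlations, sums and relative levels have no test.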

Additional observations from a re-analysis of the deposited data

Results flagged for a closer look

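In 27 groups of 4 samples of the 9 genes, 2 samples stood apart by Dixon's criterion, which chance meets in about 5% of groups. Mag had 4670 normalized counts in CeHi replicate 1, below the other CeHi samples, and Cnp had 16633 in CeCo replicate 2, above the other CeCo samples. The line difference itself differed between the regions for 3 genes of the lists. The interaction was -0.95 for Kif19a (SE 0.19, adjusted P-value 0.035), which was higher in Hi in both regions and more so in the Ce. For Nrg3 it was -0.77 (SE 0.15, adjusted P-value 0.027), with means of 381 and 521 normalized counts in CeCo and CeHi and of 1206 and 968 in StCo and StHi. For Cbln1, a cerebellin of granule cells, it was 0.80 (SE 0.16, adjusted P-value 0.036), with 42150 and 34702 in CeCo and CeHi and 380 and 538 in StCo and StHi. With 1 sample left out Kif19a was lost in 10 of 15 cases (any but CeHi replicates 1 or 3, StCo replicates 1 or 2 or StHi replicate 1, adjusted P-value up to 0.098). Nrg3 was lost in 6 (CeCo replicates 0 or 3, StCo replicates 0 or 1, StHi replicates 1 or 2, up to 0.075) and Cbln1 in 11 (any but CeCo replicate 2, CeHi replicate 3 or StCo replicates 2 or 3, up to 0.092).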

How the results depend on the processing

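Over 1278 recomputed differences of the 9 genes, 1236 kept their direction and their side of the threshold. With limma the line effect passed for 903 genes in the Ce, 405 in the St and 81 in the interaction. With DESeq2 it passed for 1389 genes in the Ce, 709 in the St and 277 in the interaction, and for 1 of the 9 genes in the Ce and 4 in the St. Mog passed between regions in Hi with sample quality weights (adjusted P-value 0.037) and in Co in the fit of its groups alone (0.0090), as did Ugt8a in Hi (0.043). Sample quality weights gave 740 genes in the St, 182 in the interaction and 2 of the 9 genes in the St, and the fit of the compared groups alone gave 1 of the 9 in the Ce. With quantile normalization the Co region difference was -0.12 for Mbp, -0.12 for Cnp and -0.019 for Ugt8a. Per kilobase, Mbp exceeded Cnp 3.37-fold in CeCo.

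With 1 sample left out, the line effect passed for 615 to 952 genes in the Ce, 272 to 470 in the St and 42 to 117 in the interaction (49 without CeCo replicate 0, 53 without CeHi replicate 2, 42 and 50 without StHi replicates 1 and 2). Region calls numbered 11016 to 11489 in Co and 10078 to 10786 in Hi. Of the 9 genes 0 to 0 passed between the Ce lines, 0 to 2 between the St lines, 0 to 0 in the interaction, 4 to 6 between regions in Co and 6 to 8 in Hi. The Mog interaction ranged from -0.14 to 0.33, and the Co region difference from -0.026 to 0.11 for Cnp and from -0.085 to 0.15 for Ugt8a. The cause of these changes was not tested.

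Within a region, same-numbered samples of the lines had correlations of -0.22 to 0.20 and share only a number. The replicate number as a block left 948 genes in the Ce, 374 in the St and 73 in the interaction, and 54 in the interaction as a block within line. In Hi, where same-numbered samples did not have correlated deviations, the block within line called Mog between regions (0.76, adjusted P-value 0.0077). CeHi replicate 3 has no same-numbered StHi sample, so this block takes it out of the region difference. Leaving that sample out without a block gave the same log2 difference (0.76), so the call does not show an effect of pairing. Whether same-numbered Hi samples came from the same mouse could not be told. The block changed no other call of the 9 genes, apart from Mog in Co. What depth limits is small here, since the lowest member value was 90 normalized counts, and the number of samples limits the precision.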
